A study of Oryctolagus cuniculus with 134 samples.

Results

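The pulmonary valve (PV), the outflow valve of the right ventricle, was profiled by RNA sequencing in rabbits fed a cholesterol-enriched diet (CHT) and in rabbits fed standard chow (Ctrl). The 13 libraries described here, 6 CHT and 7 Ctrl, were chosen by their tissue and treatment labels from the 134 libraries of the series. Each came from a different New Zealand White male rabbit, 12 weeks old when a protocol of 16 weeks began. CHT rabbits ate chow with 0.3% cholesterol and also drank vitamin D2 at 25000 U per day, scaled to body weight, during the opening 15 days. Ctrl rabbits received neither, so in CHT versus Ctrl the diet and the vitamin cannot be told apart. A further pair of PV groups, of 7 libraries each, served for reference, a 5% lard diet with the same vitamin D2 (Lard) and the cholesterol diet with vitamin D2 plus 24 Gy of cardiac X-rays (IR/CHT). Vitamin D2 without a fat diet was not analysed here.

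Cells balance cholesterol through paired sensors. When membrane sterol is low, the transcription factor SREBP-2 switches on genes of cholesterol synthesis and uptake, and when sterol is abundant the protein INSIG1 holds it back. Oxidised sterols in turn activate the liver X receptors (LXR), which raise ABCA1, the pump that exports cholesterol to apolipoprotein A-I. Valve leaflets are built by valve interstitial cells in a collagen and proteoglycan matrix under an endothelial layer, with resident macrophages, and macrophages that fill with lipid become foam cells.

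The labelled tissue carried its defining transcripts in both groups. The summed level of 12 interstitial cell and fibroblast markers was 18000 to 22660 in Ctrl and 17700 to 24570 in CHT, in CPM, the counts scaled to library size. That of 11 endothelial markers was 1403 to 2008 CPM in Ctrl and 1333 to 1781 CPM in CHT. Library totals of the 13 libraries ran from 14120848 to 20436724 counts, so that 1 CPM stood for at least 14.1 counts. Heart muscle transcripts set libraries apart, since the sum of 16 such genes was 5622 and 6476 CPM in Ctrl L263 and L200, 247.6 to 612.8 CPM in the other 5 Ctrl libraries and 163.5 to 275.4 CPM in CHT. L263 and L200 also stood apart in the sum of 8 adipocyte genes, at 76.9 and 106.4 CPM. That sum was 7.46 to 18.5 CPM in the other 5 Ctrl libraries and 7.70 to 17.0 CPM in CHT. The 2 groups shared 2 plates, with 5 Ctrl and 4 CHT libraries on plate 1 and 2 of each on plate 2. The labels do not say which step of the work the plates belong to.

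The cholesterol diet was accompanied by a small set of differentially expressed genes (DEGs) in the PV. Of 14450 genes tested with edgeR, 23 passed (0.159%), at an adjusted p below 0.05 and a fold change above 1.5. At an unadjusted p below 0.05 stood 9.97% of genes, 5.2% higher and 4.77% lower. Of the 23, 7 were higher in CHT (0.0484% of the genes tested) and 16 were lower (0.111%). Of the lower genes, 10 are known enzymes, receptors or sensors of sterol metabolism, and the higher ones were led by ABCA1. In 20 of the 23 the CHT and Ctrl libraries did not overlap, where 0.298% of all genes had every CHT library above every Ctrl library and 0.381% every one below. Leaving out each of the 13 libraries in turn kept 18 of the 23 calls, and the 5 that were lost at least once are named with their values. With 2 libraries per group on plate 2, only ABCA1 and APOD passed there, and 16 of the 23 passed on plate 1 alone.

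Most enzymes of cholesterol synthesis were lower in CHT. Of 14 tested members of the pathway 8 were called, all lower, and 13 had a negative log2 fold change. Their median was -0.94, against 0.00 over all genes, and 7 of the 14 had every CHT library below every Ctrl library. The lists and their directions were known from earlier work on these data, so the counts describe these samples.

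The largest fall among the synthesis enzymes was that of SQLE, squalene epoxidase. Its CPM was 13.4 to 43.2 in Ctrl (median 21.4) and 4.50 to 7.66 in CHT (median 6.03). The groups were separate, with means of 25.7 ± 11.8 (SD, n = 7) and 6.21 ± 1.20 (SD, n = 6), a log2 fold change of -2.05 (SE 0.26, adjusted p = 5.95e-05). MSMO1, a methylsterol monooxygenase, ran from 11.8 to 28.7 CPM in Ctrl (median 18.1) and from 5.18 to 7.81 CPM in CHT (median 6.15). It was also separate between groups, at a log2 fold change of -1.62 (SE 0.21, adjusted p = 7.81e-05).

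CYP51A1, lanosterol demethylase, gave 26.5 to 59.5 CPM in Ctrl (median 45.3) and 16.6 to 27.5 CPM in CHT (median 19.6), a log2 fold change of -1.11 (SE 0.16, adjusted p = 3.09e-04). It was the exception to separation, because CHT L246 at 27.5 CPM lay just above the lowest Ctrl library and the other 5 CHT libraries lay below.

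Other enzymes of the pathway were also among the called genes. HMGCS1, HMG-CoA synthase, was at 24.5 to 57.7 CPM in Ctrl (median 38.6) and 16.4 to 21.99 CPM in CHT (median 19.8), a log2 fold change of -1.09 (SE 0.16, adjusted p = 3.45e-04). Its libraries were separate between groups. FDFT1, squalene synthase, was the most abundant of the called enzymes, with 101.8 to 174.03 CPM in Ctrl (median 141.6) and 59.9 to 74.3 CPM in CHT (median 71.0). It fell by 1.02 on the log2 scale (SE 0.12, adjusted p = 1.97e-05), and NSDHL, a sterol dehydrogenase, fell by 1.03 (SE 0.14, adjusted p = 7.81e-05). The plot of sterol genes by library shows the narrow CHT range of these enzymes beside the wider Ctrl range.

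**Figure D1:**
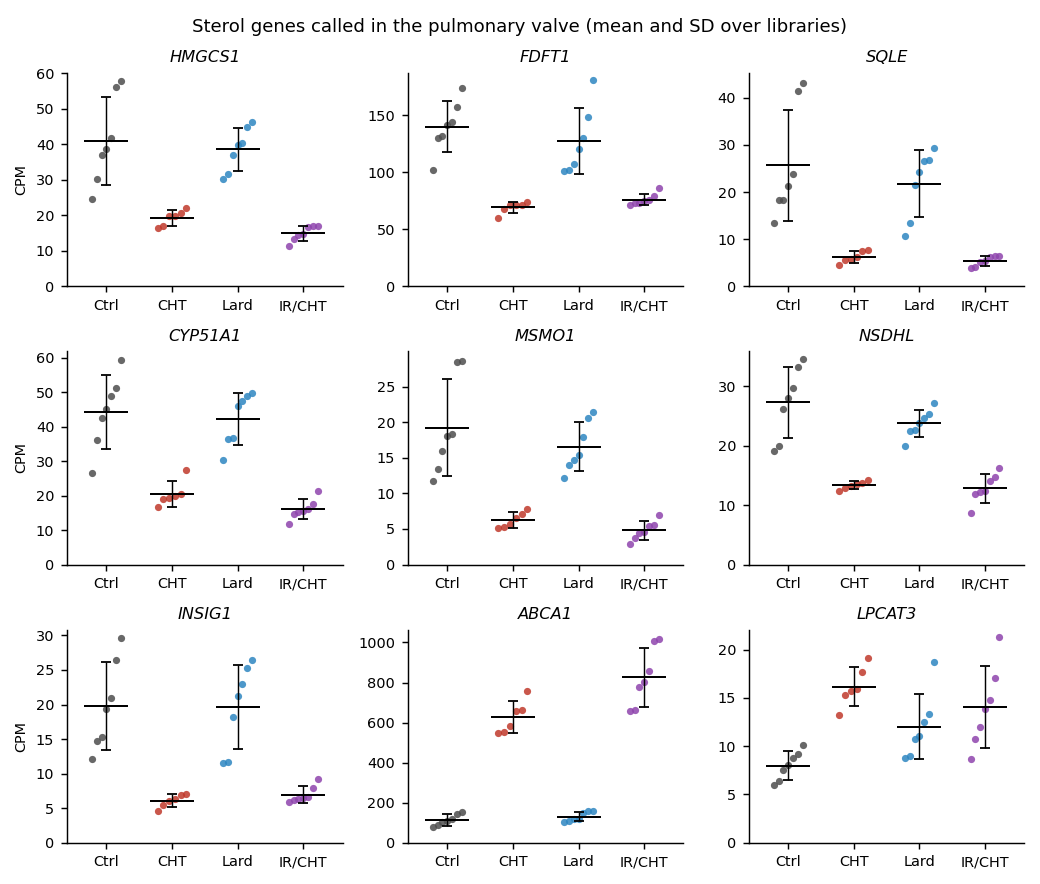
CPM of 9 called sterol genes (vertical axes, from 0) by treatment group in the PV, 1 point per library, with horizontal bars for the mean and error bars for the SD. For SQLE the CHT points sit between 4.50 and 7.66 CPM, all below the Ctrl points, and for ABCA1 between 546.4 and 755.6 CPM, all above them.

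The other synthesis genes did not pass. FDPS, farnesyl diphosphate synthase, had a log2 fold change of -0.85 (SE 0.19, adjusted p = 0.0739), with 5 of 6 CHT libraries below the lowest Ctrl library. ACAT2, a thiolase of the opening step, gave -0.62 (SE 0.18, adjusted p = 0.185), SC5D gave -0.41 (SE 0.14, adjusted p = 0.32) and LSS, lanosterol synthase, gave -0.26 (SE 0.23, adjusted p = 0.766). These genes leaned downward by less than the called ones, and LSS groups overlapped.

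Among 11 tested genes of sterol uptake and sensing, 2 were called, both lower, and the median log2 fold change was -0.16. INSIG1, the SREBP retention protein that is itself induced when sterol is scarce, was at 12.1 to 29.6 CPM in Ctrl (median 19.4) and 4.55 to 7.03 CPM in CHT (median 6.17), a log2 fold change of -1.71 (SE 0.22, adjusted p = 5.44e-05). SREBF2, which encodes SREBP-2, gave -0.83 (SE 0.34, adjusted p = 0.419), with 5 of 6 CHT libraries under the lowest Ctrl library. STARD4, a sterol carrier, gave -0.65 (SE 0.31, adjusted p = 0.495) and MBTPS1, a protease that processes SREBP, gave -0.30 (SE 0.11, adjusted p = 0.344). None of these passed.

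LXR target genes had the opposite sign. All 7 tested members had a positive log2 fold change, with a median of 0.49, and 2 were called higher. ABCA1 gave the smallest p of the comparison. It was at 76.2 to 152.5 CPM in Ctrl (median 109) and 546.4 to 755.6 CPM in CHT (median 621), and every CHT library lay above every Ctrl library. The means were 114 ± 27.8 (SD, n = 7) and 627 ± 80.7 (SD, n = 6), a fold change of 5.52 (log2 2.47, SE 0.15, adjusted p = 1.58e-11). It was called in all 24 alternative analyses of this comparison. LPCAT3, which remodels membrane phospholipids, was at 5.95 to 10.1 CPM in Ctrl (median 8.07) and 13.3 to 19.1 CPM in CHT (median 15.8), a 2.02-fold rise (SE 0.19 on the log2 scale, adjusted p = 0.0075). Without Ctrl L200 and L263, the libraries richest in heart muscle transcripts, its log2 fold change was 0.99, against 1.02, and its adjusted p was 0.0547.

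NR1H3, the gene of LXR alpha itself, was separate between groups, at 1.78 to 6.34 CPM in Ctrl and 6.98 to 13.0 CPM in CHT. Its log2 fold change of 1.27 (SE 0.29) did not pass at an adjusted p of 0.0739. PLTP, phospholipid transfer protein, gave 0.49 (SE 0.22, adjusted p = 0.449) and MYLIP, an E3 ubiquitin ligase, gave 0.32 (SE 0.10, adjusted p = 0.222). For MYLIP 4 of 6 CHT libraries lay above the highest Ctrl library.

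APOD and TIMD4 rose with ABCA1. APOD encodes apolipoprotein D, a lipocalin that carries small lipids. It was at 5.80 to 61.8 CPM in Ctrl (median 22.9) and 190 to 1284 CPM in CHT (median 309), a 16.8-fold difference (log2 4.07, SE 0.63, adjusted p = 0.00105). The groups were separate and the CHT libraries varied among themselves, with L188 at 1284 CPM against 190 to 539 CPM in the other 5. Without L188 the difference was 11.1-fold (log2 3.47, adjusted p = 0.00381). On plate 1 alone the adjusted p was 0.0588 at a log2 fold change of 4.13.

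TIMD4, a phosphatidylserine receptor of resident macrophages, was close to absent in Ctrl, where 5 of 7 libraries had 0 counts and the group had 4 in all. The 6 CHT libraries held 296 counts, at 0.684 to 5.56 CPM (median 2.27), and every one lay above every Ctrl library. The pooled ratio was 81.7, with a 95% exact interval of 31.6 to 302 that covers counting error only. Ctrl L263 held 3 of the 4 Ctrl counts, and without it the ratio was 271.4 (48.3 to 10800), against 67.2 to 94.7 when any other library was left out. The adjusted p was 0.00149, and 0.00174 without Ctrl L263. The summed level of 15 other macrophage genes overlapped between groups, at 705 to 924 CPM in Ctrl and 625 to 1003 CPM in CHT, and none of those genes was called. In bulk tissue a change in the number of cells of a type and a change in RNA per cell cannot be told apart.

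GCLC, the catalytic subunit of the enzyme that limits glutathione synthesis, rose 2.19-fold (log2 1.13, SE 0.15, adjusted p = 9.75e-05). Its libraries were at 14.7 to 22.4 CPM in Ctrl (median 19.3) and 24.7 to 59.9 CPM in CHT (median 39.3), without overlap. On plate 1 alone its log2 fold change was 1.38 (adjusted p = 2.87e-04), and on plate 2 alone, with 2 libraries per group, it was 0.51 (adjusted p = 0.532). It was 1 of 13 tested genes of oxidative stress and iron to pass, and the median of that list was 0.11.

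The 4 lower genes with a symbol outside sterol metabolism were TSC22D3, CRY1, WEE1 and TBX20. TSC22D3, a glucocorticoid-induced leucine zipper protein, was at 205 to 354 CPM in Ctrl (median 282) and 154.3 to 195.9 CPM in CHT (median 172.9), a log2 fold change of -0.70 (SE 0.13, adjusted p = 0.0106). All 9 tested genes of the glucocorticoid list had a negative log2 fold change, with a median of -0.28, and TSC22D3 was the 1 called. ZBTB16 gave -1.26 (SE 0.34, adjusted p = 0.163) and FKBP5 gave -0.92 (SE 0.27, adjusted p = 0.21). CRY1, a repressor of the circadian clock, was at 13.6 to 19.6 CPM in Ctrl (median 15.8) and 2.84 to 11.5 CPM in CHT (median 5.39). Its log2 fold change was -1.40 (SE 0.27, adjusted p = 0.0154), and the adjusted p was 0.0532 to 0.0579 without CHT L171, L188 or L230 and 0.0501 without Ctrl L200 and L263, at a log2 fold change of -1.44. The other 11 tested clock genes were not called, and the hour of tissue collection was not used here.

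WEE1, a kinase that holds cells out of mitosis, was at 10.6 to 18.2 CPM in Ctrl (median 16.3) and 6.58 to 10.9 CPM in CHT (median 8.54). The groups overlapped by 1 CHT library, at a log2 fold change of -0.83 (SE 0.17, adjusted p = 0.031). TBX20, a T-box transcription factor of the developing and adult heart, was at 288 to 381 CPM in Ctrl (median 348) and 174.3 to 231.3 CPM in CHT (median 203), without overlap. Its log2 fold change was -0.73 (SE 0.15, adjusted p = 0.04). Both calls were close to the threshold. The adjusted p of WEE1 was 0.0572 to 0.11 without Ctrl L184, L200, L263 or L279 or CHT L188, L154, L267 or L230. That of TBX20 was 0.0533 to 0.122 when any of the libraries but Ctrl L167 was left out. Without Ctrl L200 and L263 together the log2 fold changes were -0.74 for WEE1 and -0.70 for TBX20, with adjusted p of 0.266 and 0.228. The TBX20 level was 352 CPM in each of these, within the range of the other Ctrl libraries. In Lard it was 331.4 to 467.7 CPM in L192, L234, L271 and L545, the libraries richest in heart muscle transcripts. It was 243.8 to 282.6 CPM in the other Lard libraries. In IR/CHT the richest, L196, L238 and L259, were at 208.2 to 238.8 CPM and the others at 249.4 to 419.1 CPM. The part of heart muscle in TBX20 levels was not tested.

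**Figure D2:**
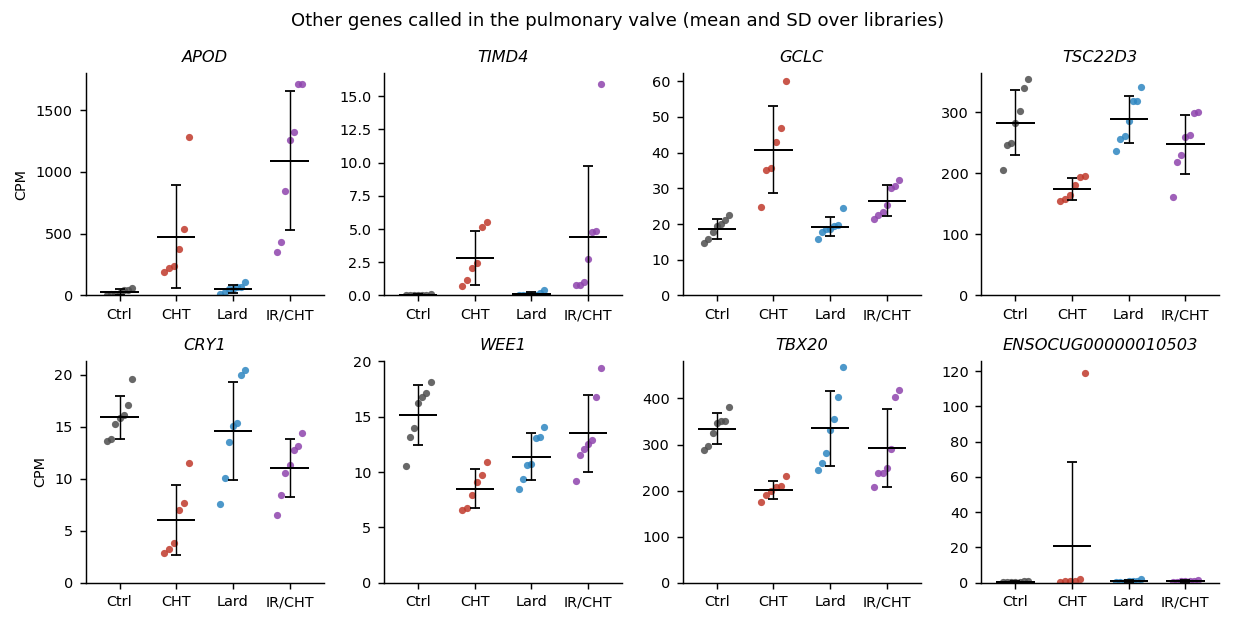
CPM of 8 further called genes (vertical axes, from 0) by treatment group in the PV, 1 point per library, with bars for the mean and SD. The 6 CHT points of TBX20 lie at 174.3 to 231.3 CPM under all 7 Ctrl points, and that of ENSOCUG00000010503 in CHT L230 stands alone at 119 CPM.

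Another 4 called genes have no symbol in the annotation. ENSOCUG00000007493 was lower in CHT, at 8.15 to 21.7 CPM in Ctrl and 1.91 to 3.88 CPM in CHT, and fell 4.16-fold (adjusted p = 1.97e-05). ENSOCUG00000029958 rose 4.59-fold, from 0.709 to 2.23 CPM in Ctrl to 3.75 to 8.02 CPM in CHT (adjusted p = 4.74e-04). Both were separate between groups. ENSOCUG00000002977 had a log2 fold change of -0.65 (adjusted p = 0.0229). Its adjusted p was 0.0526 to 0.0865 without Ctrl L167, L184, L200 or L263 or CHT L171, L154, L267 or L246. ENSOCUG00000010503 rested on CHT L230, with 119 CPM against 0.695 to 2.201 CPM in the other 5 CHT libraries and 0.337 to 0.782 CPM in Ctrl. Without that library its log2 fold change was 0.93 (adjusted p = 0.749), and without any 1 of the 7 Ctrl libraries its adjusted p was 0.0553 to 0.0781.

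The next genes in order did not pass. PIK3R1, a regulatory subunit of PI3 kinase, had an adjusted p of 0.04 with a log2 fold change of -0.47, under the fold threshold. On the lower side followed GDE1 at -0.89, KLF5 at -0.88, FDPS and ALAS1, the first enzyme of haem synthesis, at -0.55 on the log2 scale, with adjusted p of 0.0588 to 0.078. On the higher side were ADTRP at 1.91, H3C13 at 2.57, LIMA1 at 0.57 and HEBP2 at 0.39 beside NR1H3, with adjusted p of 0.0551 to 0.0917. ADTRP passed without CHT L154 or L230 (adjusted p = 0.0474 and 0.0397), KLF5 without Ctrl L167 or CHT L246 (0.0204 and 0.0489), FDPS without Ctrl L167 (0.0331) and H3C13 without CHT L171 or L188 (0.0386 and 0.0253). FKBP5 passed without CHT L246 (adjusted p = 0.0431).

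The comparison of CHT with Lard holds vitamin D2 equal, and it shares the CHT libraries with the comparison against Ctrl. It gave 22 called genes (0.152%), 5 higher (0.0346%) and 17 lower (0.118%) in CHT, with 8.88% of genes at an unadjusted p below 0.05. ABCA1 was at 102.1 to 156.6 CPM in Lard and differed from CHT by a log2 value of 2.27 (SE 0.15, adjusted p = 1.04e-10). The differences of the synthesis enzymes from Lard were -1.81 for SQLE (adjusted p = 3.57e-04), -1.40 for MSMO1, -1.05 for CYP51A1, -1.001 for HMGCS1, -0.88 for FDFT1 and -0.84 for NSDHL, all called, with adjusted p of 1.63e-04 to 0.00176. INSIG1 gave -1.70, APOD 3.13, TIMD4 4.88, GCLC 1.09, TSC22D3 -0.72, CRY1 -1.27 and TBX20 -0.73, each called.

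LPCAT3 did not pass against Lard (log2 0.43, adjusted p = 0.49), and its Lard libraries ran from 8.82 to 18.7 CPM, over the upper Ctrl and all but the top of the CHT range. WEE1 gave -0.42 (adjusted p = 0.46) with 8.47 to 14.1 CPM in Lard. The Lard libraries L192, L234, L545 and L271 carried 3283 to 4337 CPM of heart muscle transcripts, and without them 5 genes were called, with ABCA1 (adjusted p = 6.44e-06), FDFT1 (0.014), INSIG1 (0.0421) and ENSOCUG00000007493 (0.0117) among them. Without them the log2 difference of TBX20 was -0.37 and that of SQLE was -1.52 (adjusted p = 0.9999 and 0.1155). The part of heart muscle transcripts in these differences was not tested. Leaving out Lard L250 gave 67 called genes, Lard L541 48 and Lard L155 39.

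In IR/CHT, which received the same diet, ABCA1 was at 657 to 1017 CPM and SQLE at 3.82 to 6.45 CPM, both outside the Ctrl range in all 7 libraries. Of the 23 called genes 14 had every IR/CHT library beyond the Ctrl range. Those that overlapped Ctrl there included GCLC, LPCAT3 and WEE1, as well as TBX20, at 208 to 419 CPM, CRY1, at 6.48 to 14.5 CPM, and TSC22D3, at 162 to 300 CPM. The 23 genes were chosen by their difference from these same Ctrl libraries, which favours IR/CHT values beyond the Ctrl range. The share of all genes with such values was not counted. These levels are a description, and irradiation was not compared with CHT alone.

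No gene of the macrophage and foam cell lists, which do not hold TIMD4, was called in the PV. Of 15 tested macrophage markers 0 were called by edgeR or DESeq2, 4 had an unadjusted p below 0.05, all higher, and the median log2 fold change was 0.38. ITGAM, an integrin of myeloid cells, was at 5.11 to 10.2 CPM in Ctrl and 10.4 to 17.0 CPM in CHT, separate between groups, with a log2 fold change of 0.74 (SE 0.21, adjusted p = 0.202). AIF1 gave 0.75 (SE 0.22, adjusted p = 0.223) and FCER1G 1.05 (SE 0.32, adjusted p = 0.233). CD163, among the most abundant, gave -0.19 (SE 0.33). Of 18 genes for cholesterol storage, lysosomes and foam cells 0 were called by either tool and 6 had an unadjusted p below 0.05, 4 higher and 2 lower. MSR1, a scavenger receptor for modified LDL, gave 1.02 (SE 0.32, adjusted p = 0.252) and FABP5 gave 1.30 (SE 0.42, adjusted p = 0.269).

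Aortic valves (AoV) of the same rabbits give the scale for these values. The same fit called 1833 genes there (11.9% of those tested, 8.42% higher and 3.48% lower), with 9 of 15 macrophage markers and 15 of 18 foam cell genes, all higher, and medians of 2.47 and 2.43. All 6 AoV CHT libraries were on plate 1, whereas 3 AoV Ctrl libraries were on plate 1 and 4 on plate 2, so that plate and diet overlap in AoV values. With plate as a covariate 1125 AoV genes were called, and on plate 1 alone 826, both chosen after seeing the AoV plates. On plate 1 alone 9 macrophage and 13 foam cell genes were among them, with medians of 2.81 and 2.49.

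The difference of the responses, PV minus AoV, was tested as an interaction and passed for 702 of 15975 genes (4.39%) at an adjusted p below 0.05, of which 641 were lower in PV (4.01%) and 61 higher (0.382%). With plate as a covariate 583 passed, 558 lower and 25 higher, and on plate 1 alone 521 were lower and 30 higher. Among macrophage markers 8 of 15 and among foam cell genes 14 of 18 had a lower response in the PV. Of 7 MHC class II genes 4, of 17 mitosis genes 12 and of 18 DNA replication genes 5 did so as well. On plate 1 alone these counts were 8 macrophage, 14 foam cell, 4 MHC class II, 10 mitosis and 4 DNA replication genes, and with plate as a covariate they were 8, 12, 5, 11 and 6. None of the 14 sterol synthesis genes passed the interaction, with or without the plate correction, and their median response was -0.94 in PV and -1.14 in AoV. STARD4 was the 1 gene of sterol uptake and sensing to pass it, at 1.48 in AoV and a difference of -2.10 (SE 0.41, adjusted p = 4.65e-04).

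**Figure D3:**
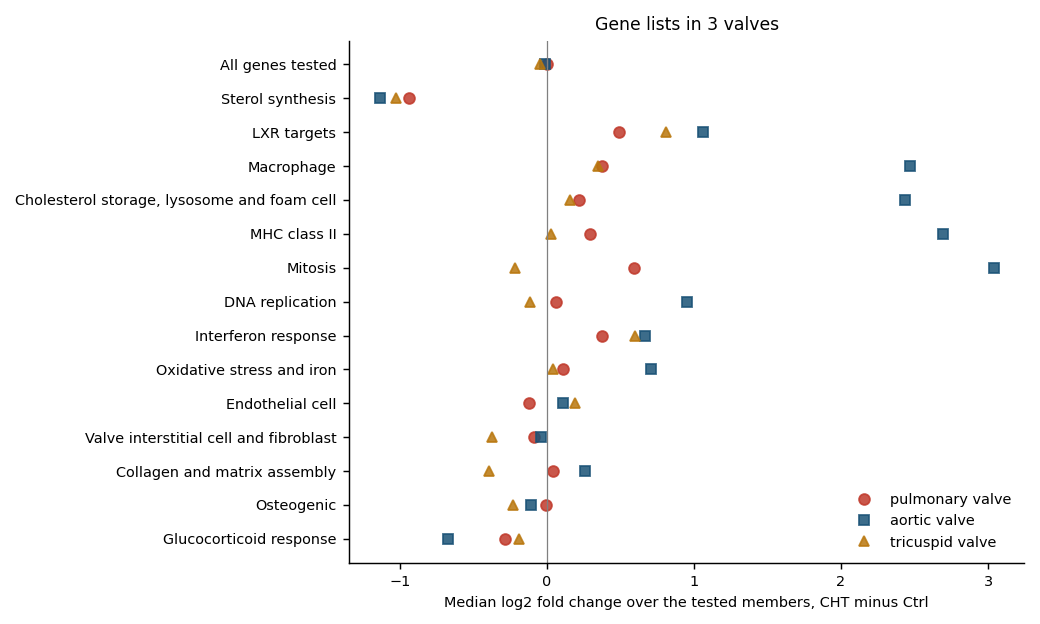
Median log2 fold change, CHT minus Ctrl, over the tested members of 14 gene lists and over all genes (horizontal axis), in the pulmonary, aortic and tricuspid valves, 1 symbol per valve. Sterol synthesis lies at -0.94, -1.14 and -1.03, whereas mitosis lies at 0.59 in the pulmonary, 3.04 in the aortic and -0.22 in the tricuspid valve.

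GPNMB, a glycoprotein of lipid-laden macrophages, was at 2.90 to 7.70 CPM in Ctrl and 6.74 to 12.8 CPM in CHT in the PV, a log2 fold change of 0.57 (SE 0.30, adjusted p = 0.523). In AoV it rose by 7.26 (SE 0.42), and the difference of the responses was -6.67 (SE 0.49, adjusted p = 3.98e-14). CD68, a lysosomal marker of macrophages, gave 0.25 in PV and 2.96 in AoV, with a difference of -2.69 (SE 0.29, adjusted p = 3.9e-09). GLB1, lysosomal beta-galactosidase, and CCDC15 gave -0.045 and -0.079 in PV against 2.44 and 2.54 in AoV. ANO4, NYAP2 and TRPM1, with AoV means of 111, 97.4 and 49.0 CPM in CHT, reached at most 1.07, 0.758 and 0.892 CPM in any PV CHT library. The genes of this paragraph were chosen by their p in AoV or in the difference of the responses, which favours large differences.

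**Figure D4:**
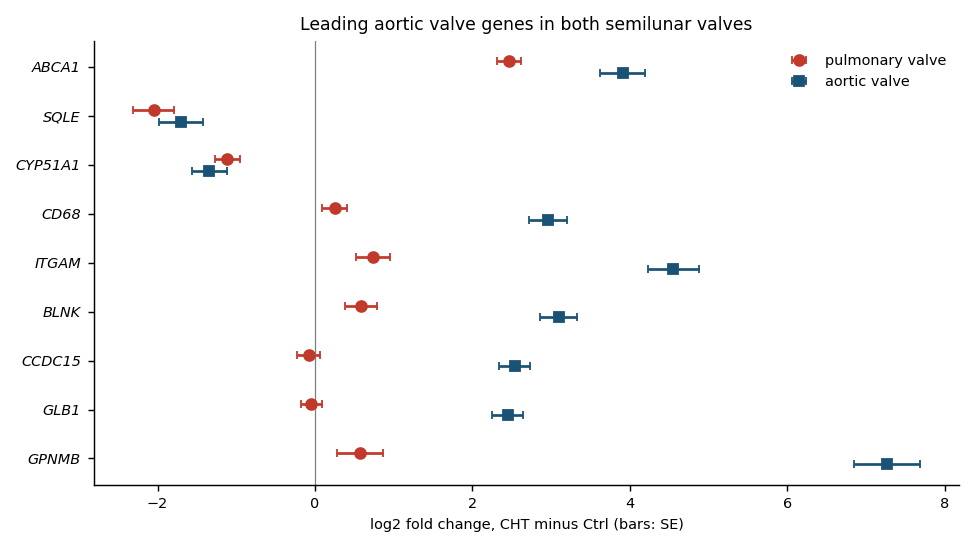
log2 fold change of CHT minus Ctrl (horizontal axis, bars show the SE) for 9 genes with small p in the aortic valve or in the difference of responses, in pulmonary (circles) and aortic (squares) valves. SQLE and CYP51A1 lie side by side, while GPNMB is at 0.57 in the pulmonary and 7.26 in the aortic valve.

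Of the 23 called PV genes 3 passed the interaction with AoV. ABCA1 rose in both valves and by less in PV (difference -1.43, SE 0.31, adjusted p = 0.00147). On a common scale its Ctrl medians were 103 CPM in PV and 54.7 CPM in AoV, and its CHT medians were 596 and 709 CPM. TIMD4 had the opposite pattern, with 8 counts in 7 AoV Ctrl libraries and 4 in 6 AoV CHT libraries beside the 296 in PV CHT. Its interaction had an adjusted p of 0.00623, 0.0469 on plate 1 alone, and 0.101 without AoV Ctrl L240. The third, ENSOCUG00000010503, rested on CHT L230 (without it, adjusted p = 0.188) and did not pass on plate 1 alone (adjusted p = 0.354) or with rabbit as a replicate block (adjusted p = 0.164).

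The tricuspid valve, the other valve of the right heart, gave 24 called genes (0.163%), 12 higher and 12 lower (0.0816% each). No gene passed the test of PV minus tricuspid responses by edgeR, with 469 of 15372 at an unadjusted p below 0.05 and 21 by DESeq2. ABCA1 gave 2.69 in the tricuspid valve, SQLE -2.02 and APOD 2.82, each called there. TIMD4 held 13 counts in tricuspid Ctrl and 373 in tricuspid CHT. The smallest p of the difference between valves were those of the heart muscle genes MYL2, NRAP, ACTC1, ANKRD1 and MYH7.

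Heart muscle transcripts were low in every CHT library of the PV. Of 14 tested members all had a negative log2 fold change, with a median of -4.95, 13 had an unadjusted p below 0.05, and 5 had every CHT library below every Ctrl library. By edgeR 0 of 14 were called and by DESeq2 9 of 16, all lower. MYH7, the slow myosin heavy chain, was at 18.8 to 4599 CPM in Ctrl (median 156.4) and 5.65 to 28.5 CPM in CHT (median 14.6). Its log2 fold change was -6.32 (SE 1.58, adjusted p = 0.117). The Ctrl range was set by L200 and L263, at 4599 and 3578 CPM.

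MYL2, a ventricular myosin light chain, was at 2.84 to 513 CPM in Ctrl and 0.357 to 2.08 CPM in CHT, separate between groups (adjusted p = 0.0951). ACTC1, cardiac actin, NRAP, TRDN and ANKRD1 had an adjusted p of 0.0971 to 0.107 by edgeR, and all 5 of these were called by DESeq2. DESeq2 called 117 genes in this comparison (0.47%), 38 higher and 79 lower. Without L200 and L263 the median of the 14 heart muscle genes was -2.21, all 14 were negative and 0 were called. Lard and IR/CHT libraries ranged from 230.7 to 4337 and from 274.3 to 2093 CPM in the summed level, so that the CHT range was the lowest of the 4 groups with overlap. A fall of these genes was also found in AoV, where the median was -4.69 and 11 of 15 tested genes were called, 0 of them higher. In the tricuspid valve the median was -0.55 and 0 of 16 were called. How much of the PV difference follows from the muscle left on the leaflet was not tested.

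**Figure D5:**
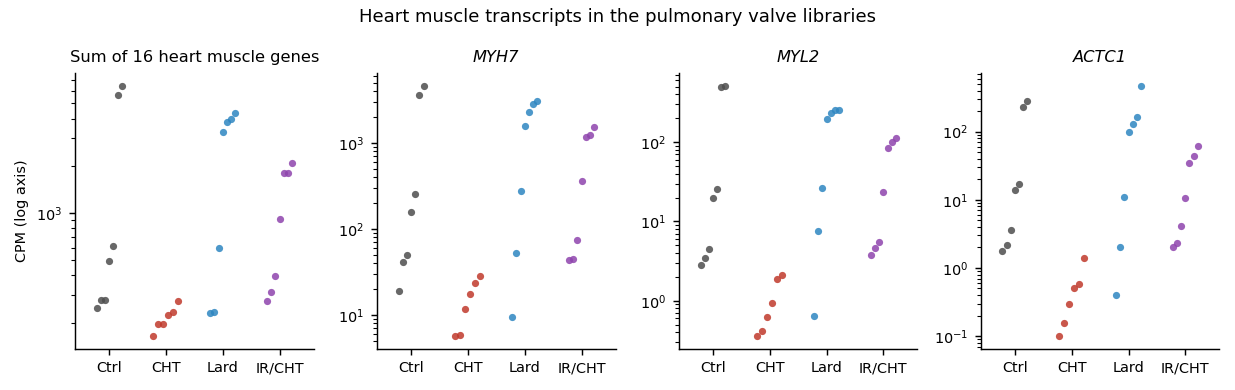
CPM (vertical axes, logarithmic) of the sum of 16 heart muscle genes and of MYH7, MYL2 and ACTC1 in each PV library of the 4 groups. The 6 CHT libraries lie at 163.5 to 275.4 CPM in the sum, and Ctrl L263 and L200 at 5622 and 6476 CPM.

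Matrix, endothelial and interstitial cell genes did not pass. None of 12 interstitial cell and fibroblast markers, 11 endothelial markers, 20 collagen and matrix assembly genes, 12 chondrocyte-like and proteoglycan genes or 13 osteogenic genes was called by edgeR or by DESeq2. Their unadjusted p was below 0.05 for 0, 0, 3, 1 and 4 genes, and their medians ranged from -0.12 to 0.04. Of the interstitial markers 5 were positive and 7 negative, from -0.46 to 0.22, with COL3A1 at -0.18 (SE 0.18), DCN, decorin, at -0.23 (SE 0.18) and LUM, lumican, at -0.46 (SE 0.28). Of the endothelial markers 2 were positive and 9 negative, from VWF at -0.49 (SE 0.37) to PLVAP at 0.76 (SE 0.64, adjusted p = 0.744). THBS1, thrombospondin 1, gave 0.72 (SE 0.20, adjusted p = 0.181) and ACAN, aggrecan, -0.67 (SE 0.32, adjusted p = 0.492). Of the osteogenic genes 6 were positive and 7 negative, and of the 4 with an unadjusted p below 0.05, 1 was higher and 3 were lower. PHEX and ANKH gave -0.85 (SE 0.36) and -0.35 (SE 0.16), with adjusted p of 0.428 and 0.463. The 1 on the higher side was BGLAP, osteocalcin, named here after its values were seen, at 1.80 (adjusted p = 0.464). It rested on CHT L230, with 90.5 CPM against 1.79 to 8.53 CPM in the other 5 CHT libraries and 2.11 to 11.7 CPM in Ctrl, and without that library its log2 fold change was 0.0018 (adjusted p = 0.9997).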

How the data were processed

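Total RNA of leaflets was prepared with a stranded pico-input kit and sequenced on a NovaSeq. The submitters' processing notes list bcl2fastq 2.20 and the build OryCun2.0. Per the paper's methods, reads were mapped to that genome and counted per gene through an nf-core pipeline. The deposited values are whole-number counts per gene, not normalized, in 1 table per plate. By the same methods the pipeline ran on its defaults apart from read trimming. No strand option is named there, so overlapping antisense genes may share reads. Samples were grouped by their titles, and columns were matched to them by library number.

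The 2 tables held the same 29587 genes. The 27 PV libraries of all 4 treatments were fitted together with edgeR 4.0.16 in R 4.3.3 (TMM scaling, filterByExpr, robust quasi-likelihood test, two-sided, Benjamini-Hochberg adjustment over all genes tested). Calls needed an adjusted p below 0.05 and a fold change above 1.5. Interactions between valves used the libraries of both tissues and an adjusted p below 0.05. CPM were computed on TMM-scaled library sizes. Fold changes come from the fit, and SE were derived from the F statistic. Totals of 14120848 to 20436724 give a counting error of at most 26.6% (SD) at 1 CPM. The scripts were tested on simulated data. The 616 genes of 38 lists were matched by symbol (448 found). The rabbits gave 1 library per valve, and deviations of same-rabbit PV and AoV libraries correlated with a median of 0.175 (18 of 27 rabbits over 0.1), with rabbit numbers read from column headers.

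Genes are named by a rule: all called genes (of those without a symbol at most 2 per direction), the 5 nearest uncalled genes per direction, 5 called by DESeq2 1.42.0 alone, the sterol and LXR lists, leading or abundant members of other lists, leading AoV genes, and leading interaction genes. The members and lists were chosen with earlier results of these data known. Coordinates and sequences were not used here. Some members of the lists are counted but not reported here by name.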

Additional observations from a re-analysis of the deposited data

Results flagged for a closer look

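In 4 groups of libraries 1 sample stood far from the others by Dixon's criterion (the gap to the nearest library over the whole range), out of 72 groups tested, and chance gives about 1 in 20. These were CYP51A1 in CHT L246, at 27.5 CPM against 16.6 to 20.5 CPM in the others. APOD in CHT L188 was at 1284 CPM against 190 to 539 CPM. TIMD4 in Ctrl L263 was at 0.147 CPM against 0 to 0.0506 CPM. ENSOCUG00000010503 in CHT L230 was at 119 CPM against 0.695 to 2.201 CPM.

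The CHT response differed between the pulmonary and the aortic valve by the interaction test for 3 called genes, with log2 differences of -1.43 for ABCA1, 7.26 for TIMD4 and 5.72 for ENSOCUG00000010503. The fitted value of TIMD4 depends on the prior count, since 4 counts were found in the Ctrl pulmonary valves, and it was 8.50 without pulmonary Ctrl L263, 7.99 without aortic CHT L151 and 6.15 (adjusted p = 0.101) without aortic Ctrl L240. That of ENSOCUG00000010503 was 1.47 (adjusted p = 0.188) without pulmonary CHT L230. The response also differed for leading genes of the aortic valve, with -3.80 for ITGAM, -2.49 for BLNK, -6.67 for GPNMB, -5.29 for ITGAL, -5.80 for ANO4, -7.28 for NYAP2 and -6.71 for TRPM1. These 7 were chosen by their p in the same aortic valve libraries that enter the difference, which favours such values. The value of NYAP2 was -5.87 without pulmonary Ctrl L263. Among leading genes of the interaction it was -2.69 for CD68, -2.59 for CCDC15 and -2.47 for GLB1. The last 3 and the first 7 rose in the aortic valve.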

How the results depend on the processing

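The count of 23 called PV genes was 19 to 25 with 1 library left out. It was 117 by DESeq2 on 4 groups, 205 by DESeq2 on Ctrl and CHT alone, 122 with all 5 tissues in 1 model, 2 on plate 2 alone and, in an alternative chosen after seeing the data, 41 without IR/CHT L176 and L275. Of the 23 genes 22 were among the calls of each DESeq2 fit and 21 among those of the 5-tissue model. The 22 calls against Lard became 139 by DESeq2, 141 with all 5 tissues, 7 on plate 1, 1 on plate 2, and, after seeing the data, 5 without the 4 Lard libraries richest in heart muscle and 37 without L176 and L275. With 1 library left out they were 16 to 67. The PV minus AoV interaction called 702 genes, and 528 to 964 with 1 library left out. Its 61 higher genes were 204 by DESeq2 and 96 with DESeq2 size factors. The PV minus tricuspid count of 0 was 21 by DESeq2 and 0 with each library left out. The PV log2 fold change of CCDC15, near 0, turned to 0.013 on plate 1 and ran from -0.129 to 0.0216 with 1 library left out, with the change of sign without Ctrl L242. That of GLB1 turned to 0.0207 on plate 1 and ran from -0.0861 to 0.00808, with the change of sign without Ctrl L279. The cause of these shifts was not tested. With rabbit as a replicate block the interactions called 831 and 0 genes, and of the named calls the block changed that of ENSOCUG00000010503 (2.16, adjusted p = 0.164). At 1 CPM the depth limits single-library values, and 6 and 7 rabbits limit small differences.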

Other observations

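Of 16 tested mitosis genes 15 had a positive log2 fold change in the PV, with a median of 0.59 against 0.00 over all genes. By edgeR 0 were called, with 4 at an unadjusted p below 0.05, and by DESeq2 2 were called. TOP2A, a topoisomerase of dividing cells, was at 4.34 to 7.04 CPM in Ctrl and 7.43 to 15.6 CPM in CHT, without overlap (log2 0.83, SE 0.21, adjusted p = 0.107 by edgeR and 0.0121 by DESeq2). TTK, a kinase of the spindle checkpoint, gave 1.44 (SE 0.38, adjusted p = 0.142 by edgeR and 0.0211 by DESeq2), at 0.168 to 1.07 CPM in Ctrl and 0.695 to 2.84 CPM in CHT. Interferon response genes were positive in 14 of 15, with a median of 0.37, 0 called by edgeR or DESeq2 and 3 at an unadjusted p below 0.05. IFIT2, the exception, gave -0.51 (SE 0.19, adjusted p = 0.354).

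Complement C1S, a protease of the classical pathway, was at 143 to 427 CPM in Ctrl and 375 to 570 CPM in CHT (log2 0.82, SE 0.20, adjusted p = 0.0961 by edgeR and 0.0102 by DESeq2). Without Ctrl L184 its adjusted p by edgeR was 0.0158. MMP12, macrophage elastase, stayed under 1 CPM in the PV, with at most 0.197 CPM in Ctrl and 0.178 to 0.895 CPM in CHT. Genes that answer vitamin D gave 0 calls of 7 by edgeR and 0 by DESeq2, with 2 at an unadjusted p below 0.05, and FGF23 was at most 0.673 CPM in Ctrl and 0.338 to 2.32 CPM in CHT (adjusted p = 0.426).

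Markers of other cell types and further gene groups gave 0 calls by edgeR. Median log2 fold changes were 0.25 for 3 tested neutrophil genes, -0.22 for 2 T cell, -0.12 for 4 B cell, 0.17 for 4 platelet, -0.39 for 5 adipocyte, -0.16 for 4 melanocyte, -0.03 for 5 Schwann cell and -0.01 for 8 smooth muscle genes, and the 1 tested red blood cell gene gave -1.38. They were 0.29 for 6 MHC class II genes, 0.06 for 17 DNA replication, -0.12 for 12 fatty acid, -0.12 for 16 respiratory chain, 0.10 for 17 immediate early, -0.08 for 11 heat shock, -0.05 for 15 unfolded protein, -0.09 for 19 TGF-beta and BMP, 0.07 for 10 matrix protease and 0.01 for 10 endothelial adhesion genes. Of each of these lists 0 to 4 genes had an unadjusted p below 0.05, and DESeq2 called 1 neutrophil, 1 smooth muscle and 1 matrix protease gene. Of the 9 tested valve and cushion transcription factors 8 were negative, with a median of -0.13, and TBX20 alone was called.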
